A study of Mus musculus with 17 samples.

Results

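The tumour response of TIM4+CD206+ Kupffer cells (KCs), the macrophages resident in the liver sinusoids, was read from 6 of the 17 RNA sequencing samples of the series. These were the 3 samples of sorted KCs labelled Tim4+CD206+ from tumour-bearing mice and the 3 labelled Tim4+CD206+ from tumour-free mice, and all 25124 genes of their shared table were examined. Tumour-bearing mice had received KPC cells, a mouse pancreatic carcinoma line, by intraportal injection 2 weeks before the sort, whereas tumour-free mice were untreated. The injection itself was therefore part of the difference between the groups. The sort took live CD45+ cells that carried F4/80, TIM4 and CD206, after cells with lineage markers, CD3, NKp46 and Ly6G among them, had been excluded. Nothing in the labels says whether replicates were separate mice, and p-values measure the spread between these samples only.

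KCs are seeded in the embryo and maintain themselves in the adult liver. They clear dead cells, bacteria and aged erythrocytes from the blood, TIM4 and CD206 are among their uptake receptors, and their identity depends on CSF1R signalling and on nuclear factors such as LXRα and ID3. Around tumours, macrophages are known for 2 broad sets of changes: release of chemokines that recruit other leukocytes, and a programme of lipid handling, matrix turnover and tissue repair genes marked by Trem2, Spp1 and Gpnmb.

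The deposited values are on a log2 scale that has the features of a regularized log transformation, normalized across the 6 samples. Genes with few reads are drawn towards their mean on this scale, so their differences are understated. On the linear scale the values summed to between 34088200 and 39683800 per sample, which gives the scale of depth over the samples together and not the depth of each one. The first principal component, with 43.1% of the variance, separated the groups. The second, with 33.8%, set both samples numbered 2 apart from the other 4, with tumour-free replicate 2 farthest out. In tumour-free replicate 2 the deviations of genes from their group mean had a root mean square of 0.454, against 0.242 to 0.347 in the other 5 samples. Counts of most lists are therefore also given without tumour-free replicate 2 and without both samples numbered 2. The members of all 31 lists were chosen with earlier results of these data known, so no list count is independent evidence of direction. Values of replicates 1, 2 and 3 are given in that order below, with n = 3 per group.

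In the main fit, more genes rose than fell in the sorted samples of tumour-bearing livers. Of 13233 genes with a deposited value of at least log2 of 10 in 3 or more samples, 469 (3.54%) passed an adjusted p of 0.05 in limma. Of these, 337 (2.55%) were higher and 132 (0.998%) lower. No called gene lay under this limit in every sample of a group. Genes with few reads in 1 group are drawn towards their mean on this scale, so the limit cannot show reads in both groups. Gkn1, among the largest rises, was 4.87, 4.83 and 4.88 in tumour-free samples. The groups did not overlap for any of the 469, as they did not for 23.4% of all tested genes, 12.9% higher and 10.5% lower. Rises reached further than falls, with 49 genes higher by at least 3 log2 units and 1 gene lower by as much. The median difference over all tested genes was 0.02. With the replicate number as a block 1026 genes passed, 617 higher and 409 lower. No label says that samples with the same number belong together. Without tumour-free replicate 2, 1022 genes passed, 427 higher and 595 lower. Without both samples numbered 2, 744 passed, 369 higher and 375 lower. In both of these fits more genes fell than rose. They and the block called more genes lower than the main fit did, so counts of lists in them are read against these totals. When any other single sample was left out, 231 to 261 genes passed, of which 28 to 41 were lower, so the number that fell rests on the samples in the fit more than the number that rose does.

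**Figure D1:**
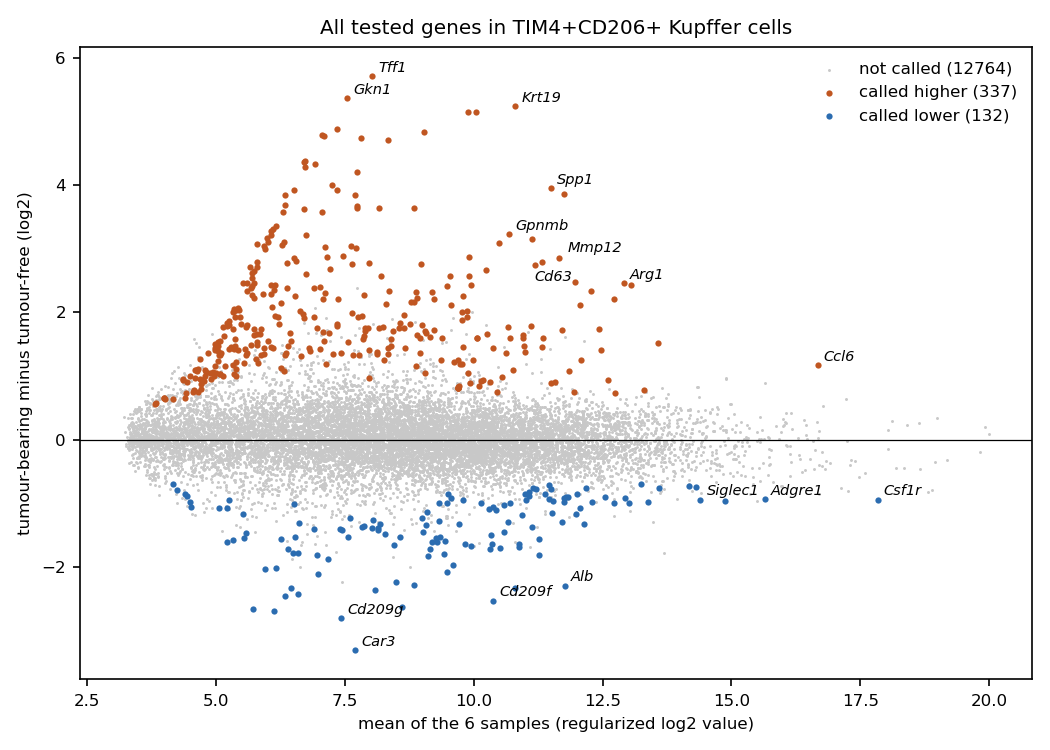
Each point is 1 of 13233 tested genes, with the mean of the 6 samples (regularized log2 value) on the x axis and the log2 difference between tumour-bearing and tumour-free KCs on the y axis. Genes that passed limma's test are coloured, 337 higher (orange) and 132 lower (blue), and the rises reach 5.72 (Tff1) while the falls reach −3.31 (Car3).

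The 10 largest rises were led by genes of gastric and pancreatic ductal-type epithelium. Tff1, a secreted trefoil peptide of the gastric mucosa (chromosome 17, 31161395 to 31165060, GRCm38), was 5.18, 5.20 and 5.13 in tumour-free and 11.26, 10.35 and 11.06 in tumour-bearing samples. The tumour-free values lay close together and every tumour-bearing value stood far above them, a difference of 5.72 ± 0.28 (SE; adjusted p = 4.27e-05). Krt19, a keratin of ductal epithelium (chromosome 11, 100140810 to 100145926), was 7.98, 7.70 and 8.85 in tumour-free and 13.61, 13.32 and 13.35 in tumour-bearing samples, a difference of 5.25 ± 0.29 (SE; adjusted p = 9.56e-05). The others were the gastrokine Gkn1 (5.37), the galectins Lgals4 (5.15), Lgals6 (5.14) and Lgals2 (4.83), the trefoil peptide Tff2 (4.88), Sptssb, a small subunit of serine palmitoyltransferase (4.79), the mucosal protein Lypd8 (4.77) and the uncharacterized LOC102631757 (4.74). How reads were divided between Lgals4 and its close copy Lgals6 is uncertain. All 10 passed in every one of the 13 alternative settings (other filters and scalings, no trend, the block, and samples left out), with adjusted p of at most 0.00231.

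Of the 10 largest falls, Cd209g and Cd209f code for C-type lectins and most of the other 8 for enzymes and secreted proteins of hepatocytes. Car3, a carbonic anhydrase, was 9.96, 9.38 and 8.73 in tumour-free and 5.29, 5.76 and 7.10 in tumour-bearing samples, and fell by 3.31 on the log2 scale. Tumour-bearing replicate 3 lay closer to the tumour-free samples than the other 2 tumour-bearing samples did, without reaching them. The amino acid transporter Slc38a3 (−2.69), the uridine phosphorylase Upp2 (−2.66), the methyltransferase Inmt (−2.62), the GABA transaminase Abat (−2.46), the cytochrome Cyp2f2 (−2.42), the carboxylesterase Ces3a (−2.36) and the antitrypsin Serpina1e (−2.33) also fell. Upp2 lost its call when tumour-free replicate 3 or any tumour-bearing sample was left out, Ces3a without tumour-free replicate 1 or tumour-bearing replicates 1 or 2, and Car3 without tumour-bearing replicate 2. The 5 Serpina1 genes fell by 1.59 to 2.33 log2 units and share much of their sequence, as do the 7 Ugt1a genes that rose by 0.81 to 0.94, so each family may count as fewer independent changes.

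The transcripts of other cell types in the sorted samples were measured with marker lists, each summed on the linear scale as a share of the sample's total. All 20 KC markers were measured, and they held 5.29 to 6.74% of the total in tumour-free and 4.20 to 4.55% in tumour-bearing samples. Epithelial markers held 0.00888–0.0127% and 0.108–0.125%, and gastric-type secretory genes 0.00315–0.00589% and 0.0607–0.0821%. Monocyte markers held 0.123–0.195% and 0.242–0.306%, and neutrophil markers 0.0384–0.0589% and 0.126–0.132%. Shares of hepatocyte markers (0.520–0.591% and 0.391–0.492%), of B and plasma cell markers (0.0407–0.0458% and 0.0250–0.0264%) and of T and NK cell markers (0.0213–0.0293% and 0.0177–0.0189%) were lower in all tumour-bearing than in all tumour-free samples. Endothelial, stellate cell and dendritic cell shares overlapped between the groups. A summed share is weighted towards the most abundant members of a list, and the hepatocyte list holds Arg1, which rose. In such bulk samples, fewer cells of a type and less RNA per cell cannot be told apart.

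**Figure D2:**
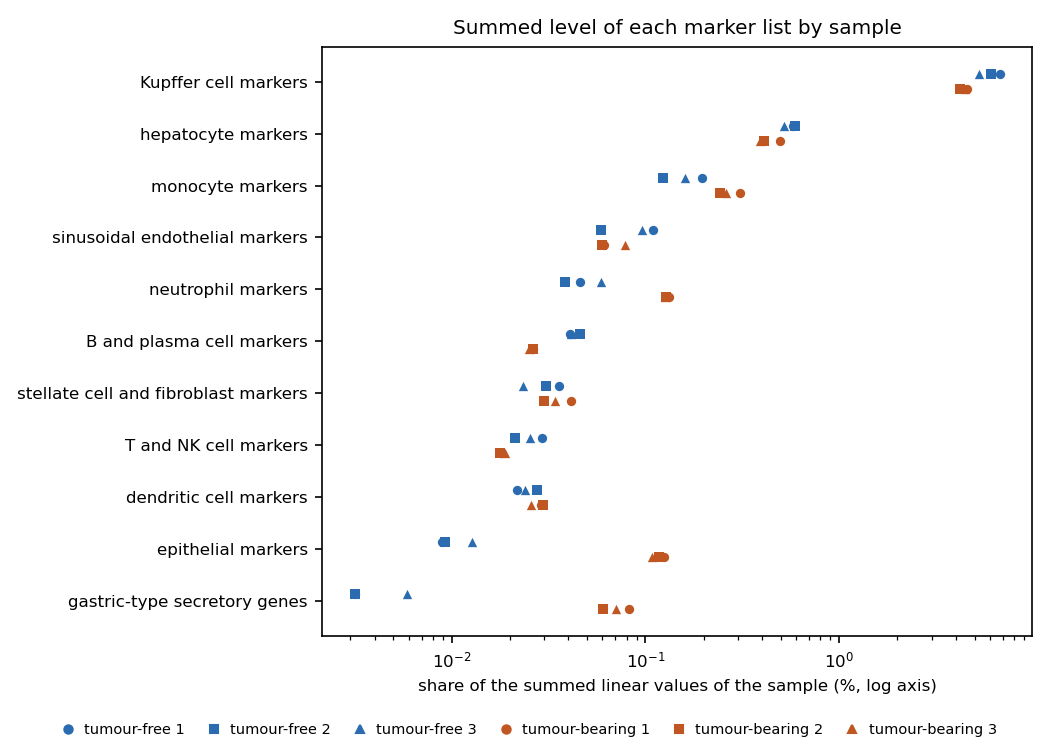
The summed level of each marker list is shown as a percentage of the summed linear values of each sample (log axis), with 1 symbol per replicate number, blue for tumour-free and orange for tumour-bearing KCs. Epithelial and gastric-type lists differ most between the groups, with tumour-bearing samples at 0.0607 to 0.125% and tumour-free samples at or under 0.0127%, while KC markers stay above 4% in all 6 samples.

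The markers that define KCs were detected in all 6 samples. Clec4f, a lectin found on KCs, was 19.65, 19.18 and 19.02 in tumour-free and 18.48, 18.47 and 18.52 in tumour-bearing samples, a difference of −0.79 that did not pass (adjusted p = 0.0925). Vsig4, a complement receptor, was 16.42, 16.67 and 16.18 in tumour-free and 16.29, 16.10 and 16.15 in tumour-bearing samples, and Cd5l, a secreted scavenger protein, differed by −0.45 (adjusted p = 0.289). These 3 genes, like Marco, were picked for description after their values were seen. Csf1r, the receptor for the growth factor that maintains macrophages, was 18.60, 18.10 and 18.21 in tumour-free and 17.39, 17.35 and 17.35 in tumour-bearing samples, lower in each tumour-bearing than in each tumour-free sample, with a difference of −0.94 ± 0.19 (SE; adjusted p = 0.0344). Of the genes used for the sort, Adgre1 (F4/80) fell by 0.93 (adjusted p = 0.028) and Timd4 (TIM4) by 0.75 (adjusted p = 0.0463), while Mrc1 (CD206) differed by −0.26 and Ptprc (CD45) by 0.45, and neither passed. The gates were set on these proteins, so their transcripts describe the sorted cells and are no measure of the liver. Csf1r, Adgre1 and Timd4 kept a call without tumour-free replicate 2 and without both samples numbered 2, and lost it when any one of the other 5 samples was left out and with median centring, with adjusted p of up to 0.17, 0.138 and 0.189. Adgre1 and Timd4 also lost it with no mean-variance trend, and Timd4 with no filter.

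Of the 20 KC markers, these 3 passed as lower, against 0.998% of all tested genes, and 17 did not pass, 18 had estimates below 0 and the median difference was −0.35. Without tumour-free replicate 2, 6 passed as lower, without both samples numbered 2, 5, with no trend, 1, and with median centring, 0. Marco, a scavenger receptor, had the highest estimate, at 0.89 (adjusted p = 0.209), with values of 15.45, 14.43 and 15.73 in tumour-free and 16.37, 16.08 and 15.83 in tumour-bearing samples. Among 24 tested nuclear factors of KC identity none passed in limma (0 higher and 4 lower at an unadjusted p under 0.05), with a median of −0.06, although with the number as a block 3 passed, 5 without tumour-free replicate 2 and 3 without both samples numbered 2, all lower. Id3, the inhibitor of DNA binding that gives the series its title, was 14.69, 14.73 and 14.82 in tumour-free and 14.30, 14.27 and 14.24 in tumour-bearing samples. Its tumour-bearing values lay close together and below the tumour-free values, and the difference of −0.47 ± 0.14 (SE) did not pass (adjusted p = 0.116, and 0.0288 to 0.356 over the alternatives). Nr1h3, which codes for LXRα, was 16.23, 15.42 and 16.16 in tumour-free and 15.46, 15.56 and 15.66 in tumour-bearing samples, and the groups overlapped (adjusted p = 0.475, and 0.0115 without tumour-free replicate 2).

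Genes of the lipid- and scar-associated macrophage programme made up the macrophage list with the most rises. Of its 26 members, all tested, 13 rose and 0 fell, against 2.55% of all tested genes higher and 0.998% lower. Its median difference was 1.03, against 0.02 for all tested genes. Its members were chosen with earlier results of these data known, so this count is no independent support. The summed share of the list overlapped between the groups, at 3.76–6.53% in tumour-free and 4.56–5.96% in tumour-bearing samples. Spp1, which codes for the secreted phosphoprotein osteopontin (chromosome 5, 104435111 to 104441053), was 10.17, 8.77 and 9.63 in tumour-free and 13.61, 13.70 and 13.13 in tumour-bearing samples. All 3 tumour-bearing values stood far above the tumour-free ones, of which replicate 2 was the lowest, and the difference was 3.95 ± 0.34 (SE; adjusted p = 0.000594). Gpnmb, a lysosomal glycoprotein (chromosome 6, 49036518 to 49058182), was 9.10, 8.67 and 9.45 in tumour-free and 11.99, 12.81 and 12.12 in tumour-bearing samples, highest in tumour-bearing replicate 2, with a difference of 3.23 ± 0.28 (SE; adjusted p = 0.000594). Mmp12, the macrophage elastase, was 10.22, 9.77 and 10.72 in tumour-free and 12.78, 13.19 and 13.30 in tumour-bearing samples, a difference of 2.85 ± 0.26 (SE; adjusted p = 0.000806).

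The tetraspanins followed. Cd63, a protein of late endosomes, was 9.98, 9.30 and 10.53 in tumour-free and 12.87, 12.66 and 12.65 in tumour-bearing samples, with a difference of 2.79 ± 0.29 (SE; adjusted p = 0.00151). Cd9, its relative at the cell surface, was 11.00, 10.76 and 11.25 in tumour-free and 13.32, 13.05 and 12.99 in tumour-bearing samples, a difference of 2.12 ± 0.18 (SE; adjusted p = 0.000594). In both genes each tumour-bearing value lay above each tumour-free one. Trem2, a lipid-sensing receptor that signals through DAP12, was 11.27, 11.87 and 11.53 in tumour-free and 13.45, 13.34 and 13.13 in tumour-bearing samples, higher in tumour-bearing samples by 1.74 (adjusted p = 0.00212). Anxa1, an annexin that dampens inflammation, rose by 2.25 and the fatty acid carrier Fabp5 by 1.79, while Lgals1, Anxa2, Apoc2, Tnfrsf12a and Itgax rose by 1.10 to 1.72. Apoe, whose values were 17.16, 20.05 and 17.67 in tumour-free and 18.11, 19.60 and 17.87 in tumour-bearing samples, did not pass (adjusted p = 0.929), and in each group replicate 2 was the highest.

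Spp1, Gpnmb, Mmp12, Cd63, Cd9, Trem2 and Anxa1 passed in all 13 alternatives. Fabp5 lost its call without tumour-free replicate 3 or any tumour-bearing sample, and Itgax in 8 alternatives. Without tumour-free replicate 2, 15 of the 26 rose, and 12 without both samples numbered 2. The shares of epithelial, monocyte and neutrophil markers were higher in the same samples (ranges above), and Spp1, Cd63, Cd9, Anxa1, Anxa2 and Lgals1 are also expressed by epithelial, stromal or other myeloid cells. The part of those cells in these rises was not tested.

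Arg1, which hydrolyses arginine and is made by hepatocytes and by macrophages in tissue repair, was 12.06, 11.14 and 11.84 in tumour-free and 14.40, 14.18 and 13.83 in tumour-bearing samples. All tumour-bearing values exceeded all tumour-free values, with a difference of 2.45 ± 0.26 (SE; adjusted p = 0.00168). It was the only 1 of 35 tested hepatocyte markers to rise, and it passed in all 13 alternatives.

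**Figure D3:**
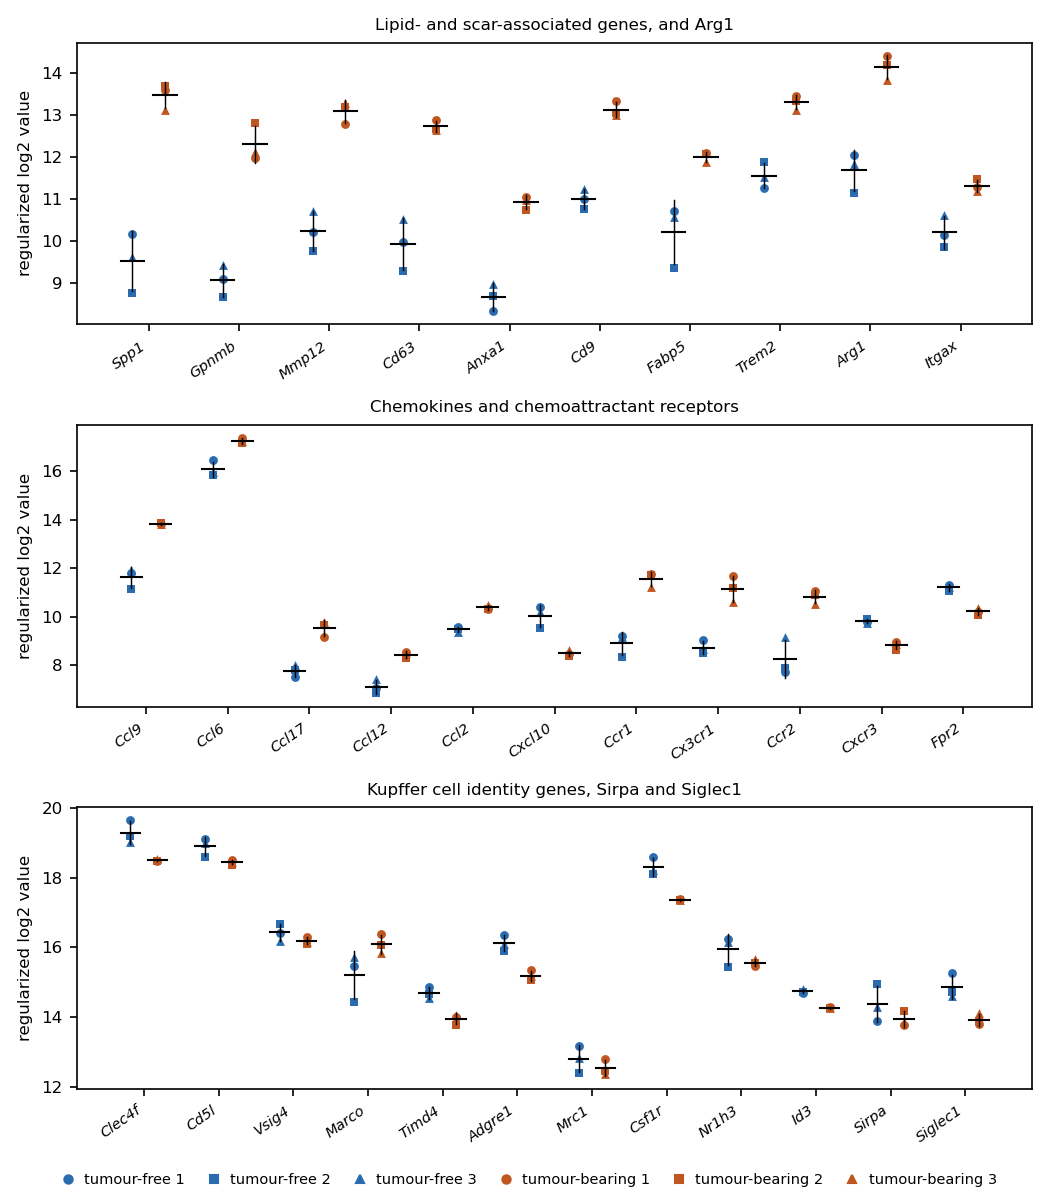
Regularized log2 values of single samples are plotted for tumour-free (blue) and tumour-bearing (orange) KCs, with symbols for the replicate number, a bar for the mean and a line for ± SD (n = 3 per group). The lipid- and scar-associated genes and Ccl9 separate the groups widely, Spp1 by 3.95 log2 units on average, while the KC identity genes differ by less than 1.

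Chemokine transcripts moved in both directions by ligand. Of 30 ligands, 27 were tested, and 5 rose and 1 fell, against 2.55% and 0.998% of all tested genes, with a median difference of 0.52. Ccl9, a ligand of CCR1, was 11.80, 11.14 and 11.93 in tumour-free and 13.82, 13.88 and 13.82 in tumour-bearing samples. The tumour-bearing samples lay close together and above all tumour-free samples, and the difference was 2.22 ± 0.22 (SE; adjusted p = 0.00113). Ccl6, another CCR1 ligand, was 16.44, 15.85 and 15.95 in tumour-free and 17.39, 17.16 and 17.23 in tumour-bearing samples, a difference of 1.18 ± 0.20 (SE; adjusted p = 0.0171). Ccl17, a CCR4 ligand, rose by 1.76 (adjusted p = 0.00769), and the CCR2 ligands Ccl12 and Ccl2 rose by 1.33 (adjusted p = 0.0251) and 0.90 (adjusted p = 0.0286). Ccl2 was 9.59, 9.48 and 9.39 in tumour-free and 10.32, 10.33 and 10.51 in tumour-bearing samples.

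Cxcl10, a CXCR3 ligand induced by interferon, went the other way. It was 10.39, 9.53 and 10.20 in tumour-free and 8.45, 8.40 and 8.62 in tumour-bearing samples, and fell by 1.55 on the log2 scale (SE 0.26, adjusted p = 0.0158). The members of the list summed to 0.318–0.392% of the linear values in tumour-free and 0.664–0.736% in tumour-bearing samples. Such a share is weighted towards abundant members, Ccl6 among them, and 21 of the 27 tested ligands did not pass. Ccl9 and Ccl17 passed in all 13 alternatives, whereas Ccl2 and Cxcl10 lost their calls when any single sample other than tumour-free replicate 2 was left out, Ccl12 when tumour-free replicate 1 or any 1 tumour-bearing sample was, and Ccl6 when tumour-free replicate 3 or any 1 tumour-bearing sample was. Median centring also ended the calls of Ccl2 and Ccl6, and 3 ligands rose with it. With the replicate block 7 ligands rose and 2 fell, without tumour-free replicate 2, 6 and 3, and without both samples numbered 2, 7 and 3.

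Among 20 receptors for chemoattractants, all tested, 4 rose and 3 fell, against 2.55% and 0.998% of all tested genes. Ccr1, the receptor for Ccl9 and Ccl6, was 9.20, 8.36 and 9.16 in tumour-free and 11.74, 11.74 and 11.24 in tumour-bearing samples, a difference of 2.67 ± 0.27 (SE; adjusted p = 0.00138). Ccr2, the monocyte receptor for Ccl2, was 7.72, 7.90 and 9.16 in tumour-free and 11.06, 10.91 and 10.52 in tumour-bearing samples, with tumour-free replicate 3 nearest to the tumour-bearing samples (difference 2.57, adjusted p = 0.00816). Cx3cr1, the fractalkine receptor, was 9.02, 8.50 and 8.67 in tumour-free and 11.69, 11.19 and 10.61 in tumour-bearing samples (difference 2.43, adjusted p = 0.00303), and the neutrophil receptor Cxcr2 rose by 1.96. Cxcr3, the receptor for Cxcl10, fell by 0.99, and the formyl peptide receptors Fpr2 and Fpr1 fell by 0.99 and 0.98. Ccr1, Cx3cr1 and Cxcr2 passed in all 13 alternatives, Ccr2 in all but the one without tumour-bearing replicate 1. Cxcr3 and Fpr2 lost their calls when any single sample other than tumour-free replicate 2 was left out, Cxcr3 also without both samples numbered 2. With the replicate block 7 receptors rose and 3 fell, without tumour-free replicate 2, 6 and 3, and without both samples numbered 2, 5 and 2. None fell when any other single sample was left out. Ccr2 and Cx3cr1 also stand in the monocyte list and Cxcr2 in the neutrophil list, whose shares were higher in the same samples.

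Of 25 tested C-type lectins of the dectin and Cd209 families, 4 rose and 2 fell, against 2.55% and 0.998% of all tested genes. Clec4e (Mincle), an activating receptor for glycolipids and dead cells, was 7.18, 7.34 and 7.55 in tumour-free and 9.29, 8.92 and 9.17 in tumour-bearing samples, a difference of 1.77 ± 0.23 (SE; adjusted p = 0.00441). Clec4d, its partner, rose by 1.58, Clec5a, which signals through DAP12, by 1.99, and Mgl2, a galactose-binding lectin, by 1.80. Cd209g, of the DC-SIGN family (chromosome 8, 4134246 to 4137707), was 9.63, 8.79 and 8.08 in tumour-free and 6.15, 5.85 and 6.09 in tumour-bearing samples, and fell by 2.80 (SE 0.38, adjusted p = 0.00612). Cd209f, of the same family, was 12.22, 11.26 and 11.44 in tumour-free and 9.39, 8.82 and 9.15 in tumour-bearing samples, and fell by 2.52 (SE 0.28, adjusted p = 0.00222). Both falls and the rises of Clec4e and Clec5a passed in all 13 alternatives. Clec4d lost its call without tumour-bearing replicate 3, and Mgl2 without tumour-bearing replicate 2 or 3. With the replicate block 5 lectins rose and 3 fell, without tumour-free replicate 2, 4 and 5, and without both samples numbered 2, 5 and 3. Members of the Cd209 family are alike in sequence, which may affect how reads were divided. Clec7a (dectin-1), a receptor for fungal glucans, was 13.03, 12.96 and 13.29 in tumour-free and 13.73, 13.39 and 13.91 in tumour-bearing samples. The groups did not overlap, and the difference of 0.58 ± 0.18 (SE) did not pass (adjusted p = 0.142, 0.0485 with the replicate block, and 0.0445 to 0.426 over the alternatives).

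In the list of inhibitory receptors and related genes, 2 of 29 members rose and 2 fell, against 2.55% and 0.998% of all tested genes. Not every member of the list is an inhibitory receptor, and Siglec1, which is among the falls, is not. The sialic acid-binding receptor Siglecf rose by 1.64 (adjusted p = 0.0226) and Havcr2, which codes for TIM3, by 1.33 (adjusted p = 0.0325). Both calls were lost when any single sample other than tumour-free replicate 2 was left out. Siglec1 (CD169), which captures sialylated particles, was 15.26, 14.73 and 14.60 in tumour-free and 13.78, 13.87 and 14.11 in tumour-bearing samples, and fell by 0.94 (adjusted p = 0.0481), losing its call in 9 of the 13 alternatives. Cd22, an inhibitory receptor of B cells, fell by 0.78. Sirpa, the receptor for the "do not eat me" protein CD47, was 13.90, 14.94 and 14.28 in tumour-free and 13.77, 14.19 and 13.86 in tumour-bearing samples. Its groups overlapped, with tumour-free replicate 2 the highest, and the difference of −0.43 ± 0.26 (SE) did not pass (adjusted p = 0.479, and 0.179 to 0.738 over the alternatives). Fcgr2b, the inhibitory Fc receptor, was 11.42, 9.69 and 11.21 in tumour-free and 12.33, 12.26 and 11.99 in tumour-bearing samples, and its difference of 1.42 passed with the replicate block (adjusted p = 0.0133) but not without it (adjusted p = 0.115, and 0.0133 to 0.316 over the alternatives). With the block 5 members rose and 5 fell, without tumour-free replicate 2, 4 and 8, and without both samples numbered 2, 3 and 4. None fell with no filter, with median centring or with no trend.

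Receptors that signal through ITAM adaptors showed 2 rises among 21 tested members, Trem2 and the amplifier of neutrophil and monocyte activation Trem1 (2.16, adjusted p = 0.00248), and no falls, against 2.55% and 0.998% of all tested genes. With the replicate block 3 rose and 1 fell, without tumour-free replicate 2, 3 and 4, and without both samples numbered 2, 3 and 5. Their adaptor Tyrobp (DAP12) differed by 0.08 and did not pass. Uptake receptors showed 1 rise, of the oxidized lipoprotein receptor Olr1 (1.41, adjusted p = 0.00968, with the call lost without tumour-free replicate 3), and 1 fall, of Timd4, among 23 tested, which is near the share of all tested genes. With the block 3 rose and 3 fell, without tumour-free replicate 2, 2 and 4, and without both samples numbered 2, 1 and 4. In the list of cytokines and inflammasome genes, 2 of 32 tested rose and 0 fell, against 2.55% and 0.998% of all tested genes. Osm, the IL-6 family cytokine oncostatin M, was 6.16, 5.90 and 5.11 in tumour-free and 8.00, 8.51 and 7.80 in tumour-bearing samples, a difference of 2.38 ± 0.34 (SE; adjusted p = 0.0075), and Il1r2, the decoy receptor for IL-1, was 7.56, 7.43 and 7.79 in tumour-free and 10.15, 10.62 and 10.28 in tumour-bearing samples, a difference of 2.76 ± 0.22 (SE; adjusted p = 0.000412). Both calls, and that of Trem1, held in all 13 alternatives. Il1b (0.21, adjusted p = 0.701) and Tnf (−0.39, adjusted p = 0.529), described after their values were seen, did not pass. Without tumour-free replicate 2, 5 cytokine genes passed as lower, and without both samples numbered 2, 4.

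Interferon-stimulated genes lay lower in tumour-bearing KCs, and some passed the test. All 32 listed members were tested and 30 had estimates below 0, with a median difference of −0.82. In limma 7 fell and 0 rose (17 and 0 at an unadjusted p under 0.05), against 0.998% of all tested genes called lower. Ifit3, an antiviral protein gene, was 12.80, 12.34 and 12.56 in tumour-free and 11.21, 11.37 and 11.61 in tumour-bearing samples, and fell by 1.17 (SE 0.18, adjusted p = 0.0123). Stat2, a transducer of type I interferon signals, was 12.28, 12.21 and 12.25 in tumour-free and 11.39, 11.45 and 11.22 in tumour-bearing samples, and fell by 0.89 (SE 0.15, adjusted p = 0.0157). In both genes each tumour-free value stood above each tumour-bearing one. The GTPase Igtp fell by 1.15, the oligoadenylate synthetase genes Oasl2, Oas2 and Oasl1 by 1.08, 1.05 and 0.86, and Cxcl10 by the amount given above. Isg15, a ubiquitin-like modifier, was 11.70, 10.54 and 11.11 in tumour-free and 10.18, 10.10 and 10.63 in tumour-bearing samples, a difference of −0.81 that did not pass (adjusted p = 0.212). Irf7, the factor that amplifies type I interferon, was 16.37, 15.38 and 16.14 in tumour-free and 14.95, 15.00 and 15.09 in tumour-bearing samples, and its difference of −0.95 passed with the replicate block (adjusted p = 0.0233) but not without it (adjusted p = 0.0863, and 0.00102 to 0.272 over the alternatives).

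How many interferon-stimulated genes fell depended on the samples and the settings of the fit. With no filter 3 fell and with no mean-variance trend 3, all samples kept. With the replicate block 15 fell, without tumour-free replicate 2, 20, and without both samples numbered 2, 18. Over all tested genes, the main fit called 132 lower and these fits 409, 595 and 375. When any other single sample was left out, 0 or 1 interferon-stimulated genes fell. Ifit3 lost its call without tumour-free replicate 3 or tumour-bearing replicates 1 or 2, Stat2 kept its own in 8 of the 13 alternatives, and Igtp, Oasl2 and Oas2 kept theirs in 6 each. The summed share of the list was 0.354–0.595% in tumour-free samples, lowest in replicate 2, and 0.266–0.303% in tumour-bearing samples. Markers of B, T and NK cells, which also respond to interferon, were lower in the same samples, and their part in this fall was not tested.

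**Figure D4:**
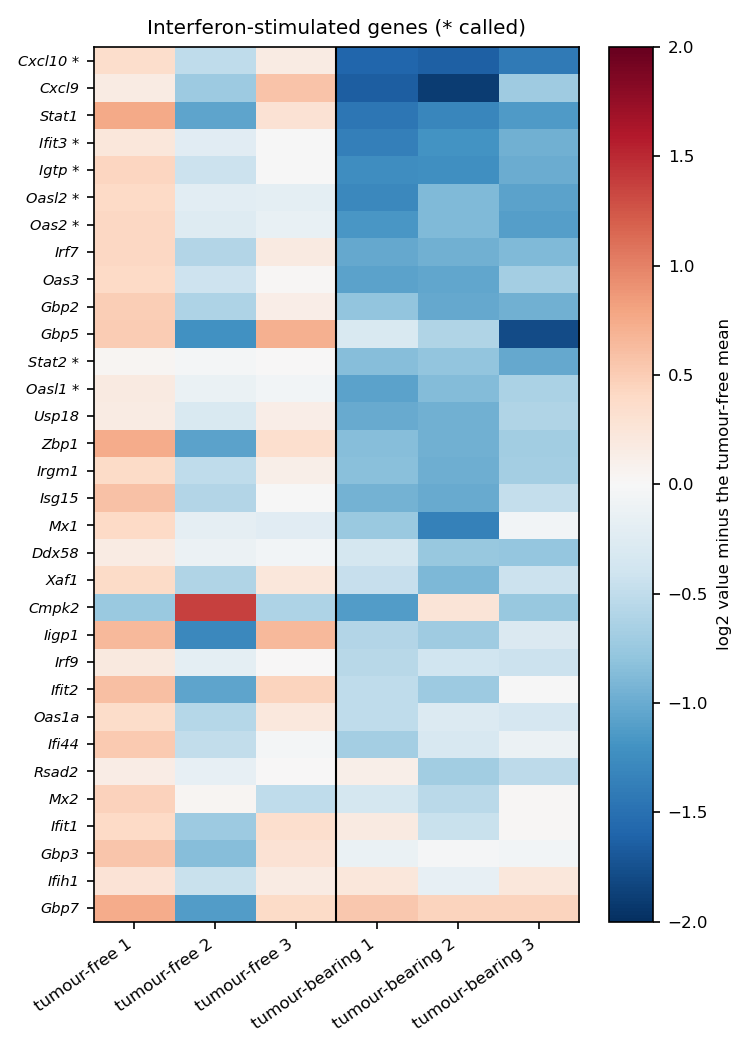
The 32 interferon-stimulated genes are shown as rows and the 6 samples as columns, with colour for the log2 value minus the mean of the 3 tumour-free samples and an asterisk for the 7 genes that passed limma's test. Tumour-bearing columns are blue for 30 genes on average, and tumour-free replicate 2 is bluer than the other 2 tumour-free samples.

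The promoters of the fallen interferon-stimulated genes are shown because these genes moved together. Windows from 250 bases before to 50 bases after the start, from RefSeq on GRCm38.p6, were searched on both strands for a pair of GAAA repeats with any 2 bases between them, the core of the interferon-stimulated response element. Of 25 tested list members with a window, 16 (64%) held it, against 3.99% of all 27025 genes with a window. The list was made of genes known to respond to interferon, so a share above that of all genes follows from its choice. Of the 6 fallen genes with a window 4 held it, which is near the share of the list, so the motif does not set the fallen members apart. The windows of these 4 genes read as follows on the gene's strand, with each match in capitals.
Ifit3, chr19:34583279-34583578 (plus strand): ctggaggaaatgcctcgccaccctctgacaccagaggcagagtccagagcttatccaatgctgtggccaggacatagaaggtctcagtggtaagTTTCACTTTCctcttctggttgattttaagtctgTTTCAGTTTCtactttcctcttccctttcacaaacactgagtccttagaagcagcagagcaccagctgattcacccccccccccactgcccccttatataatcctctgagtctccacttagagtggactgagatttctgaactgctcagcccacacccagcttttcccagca
Stat2, chr10:128270248-128270547 (plus strand): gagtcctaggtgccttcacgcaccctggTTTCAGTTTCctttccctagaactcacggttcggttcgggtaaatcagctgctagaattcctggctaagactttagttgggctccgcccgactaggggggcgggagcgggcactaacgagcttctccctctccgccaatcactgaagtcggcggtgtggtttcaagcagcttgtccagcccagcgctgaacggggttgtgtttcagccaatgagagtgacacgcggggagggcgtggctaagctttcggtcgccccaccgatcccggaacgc
Cxcl10, chr5:92348840-92349139 (minus strand): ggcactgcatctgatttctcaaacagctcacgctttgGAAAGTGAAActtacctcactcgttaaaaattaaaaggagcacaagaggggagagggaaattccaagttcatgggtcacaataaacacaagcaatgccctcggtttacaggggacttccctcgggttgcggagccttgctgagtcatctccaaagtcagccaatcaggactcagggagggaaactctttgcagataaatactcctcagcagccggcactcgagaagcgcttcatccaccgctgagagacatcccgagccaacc
Igtp, chr11:58199306-58199605 (plus strand): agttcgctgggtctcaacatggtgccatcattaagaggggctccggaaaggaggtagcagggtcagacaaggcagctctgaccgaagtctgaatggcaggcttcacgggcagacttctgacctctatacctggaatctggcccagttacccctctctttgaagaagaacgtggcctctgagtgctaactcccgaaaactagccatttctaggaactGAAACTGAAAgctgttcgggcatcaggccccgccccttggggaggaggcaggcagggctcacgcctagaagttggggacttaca
Ifit3 had 2 matches and the others 1 each. The last match ended 112 bases before the start in Ifit3, 212 in Stat2, 203 in Cxcl10 and 24 in Igtp. The AP-1 motif TGANTCA was in the windows of 5 of 20 lipid- and scar-associated genes that had one, all 5 among the 11 that rose, and of 8 of 25 interferon-stimulated genes, 2 of them among the 6 that fell, against 8.97% of all genes. The E-box CANNTG was in 16 of those 20 windows and its form CACGTG in 3, against 75% and 8.09% of all genes. Among the 11 that rose, 8 held CANNTG and 0 held CACGTG. In the 25 interferon-stimulated windows they were in 16 and 0, and among the 6 that fell in 5 and 0. Whether any of these motifs goes with a rise or a fall was not tested. A match is a description of sequence only, and no binding was measured in these samples.

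Antigen presentation genes did not pass the test, with 14 of 16 class II and 20 of 21 class I estimates below 0. None of the MHC class II genes (median −0.49, 4 lower at an unadjusted p under 0.05) and none of the MHC class I genes (median −0.38, 10 lower) passed in limma. With the number as a block 2 and 3 passed as lower, 7 and 12 without tumour-free replicate 2, and 7 and 10 without both samples numbered 2. Over all tested genes, the main fit called 132 lower and these fits 409, 595 and 375. Cd74, the invariant chain, was 19.44, 18.58 and 19.66 in tumour-free and 18.49, 18.38 and 18.36 in tumour-bearing samples. Tumour-free replicate 2 lay near the tumour-bearing values and the other tumour-free samples above them (adjusted p = 0.187, and 0.00109 without tumour-free replicate 2). H2-Ab1, a class II chain, differed by −0.58. H2-D1 and H2-L, class I chains that share most of their sequence, differed by −0.34 and −0.34.

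Complement genes showed 3 falls and 1 rise among 25 tested, against 0.998% of all tested genes called lower and 2.55% higher. Of the 25, 22 had estimates below 0, with a median of −0.52. C2, a protease of the classical pathway, was 13.74, 13.04 and 13.74 in tumour-free and 12.60, 12.37 and 12.60 in tumour-bearing samples, and fell by 0.99 (adjusted p = 0.0479), with a call lost in 8 of the 13 alternatives. C1ra, of the C1 complex, fell by 1.08 (adjusted p = 0.0139) and C8a, a liver-made part of the membrane attack complex, by 1.08 (adjusted p = 0.0209). Both calls were lost when any 1 tumour-bearing sample, or tumour-free replicate 1, was left out. The rise was that of Itgax, a chain of complement receptor 4. With the block 6 fell, without tumour-free replicate 2, 10, and without both samples numbered 2, 6. C1qa, an abundant product of KCs picked after its values were seen, differed by −0.45 and did not pass (adjusted p = 0.397).

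Hepatocyte transcripts fell in the sorted KCs. Of 36 markers 35 were tested, and 18 fell while Arg1 rose, with a median of −1.37. Over all tested genes 0.998% were called lower and 2.55% higher. Alb, which codes for albumin, was 12.85, 12.80 and 13.08 in tumour-free and 10.48, 10.16 and 11.23 in tumour-bearing samples, a difference of −2.29 ± 0.27 (SE; adjusted p = 0.00281), and the fatty acid-binding protein Fabp1 fell by 2.08 (adjusted p = 0.00816). Both passed in all 13 alternatives. Leaving out single samples gave 7 to 24 falls, and leaving out both samples numbered 2 gave 21. The gate required CD45, which hepatocytes lack, and the source of these transcripts was not tested.

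Epithelial transcripts rose in every tumour-bearing sample. Of 25 epithelial markers 22 were tested, 16 rose and 0 fell, with a median of 2.63. Of 28 gastric-type secretory genes 26 were tested, 24 rose and 0 fell, with a median of 2.99. Over all tested genes 2.55% were called higher and 0.998% lower. The gastric list was chosen with the leading genes of these samples known, so its count is no independent evidence of direction. Besides Krt19, the keratins Krt7, Krt8 and Krt20 rose by 4.71, 3.85 and 4.28, the tetraspanin Tspan8 by 4.01 and the epithelial factor Elf3 by 3.92. Krt8 was 9.92, 9.20 and 10.37 in tumour-free and 13.75, 13.76 and 13.53 in tumour-bearing samples, with all tumour-bearing values far above the tumour-free ones. Epcam and Cdh1, the defining adhesion molecules of epithelium, rose by 1.43 and 2.58. Leaving out single samples gave 12 to 16 epithelial and 19 to 22 gastric-type rises, and leaving out both samples numbered 2 gave 16 and 21. The gate held no marker against epithelial cells other than the need for CD45, F4/80, TIM4 and CD206, and the source of these transcripts was not tested.

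Monocyte and neutrophil genes rose in part, where 2.55% of all tested genes were called higher and 0.998% lower. Among 19 tested monocyte markers 6 rose and 0 fell (11 and 0 with the replicate block), with a median of 1.46. Chil3, a chitinase-like protein of inflammatory monocytes, was 8.41, 9.01 and 9.42 in tumour-free and 12.42, 11.94 and 11.76 in tumour-bearing samples, a difference of 3.10 ± 0.29 (SE; adjusted p = 0.000869), and S100a6, S100a4 and the coagulation factor F13a1 rose by 2.75, 2.01 and 2.21. Ly6c2, which defines inflammatory monocytes, differed by 0.16 and did not pass. Among 18 tested neutrophil markers 7 rose and 0 fell (13 and 0 with the block), with a median of 1.73. S100a8, a chain of calprotectin, was 10.35, 10.39 and 11.44 in tumour-free and 13.25, 13.09 and 13.25 in tumour-bearing samples, with tumour-free replicate 3 above the other tumour-free samples, and the difference was 2.48 ± 0.29 (SE; adjusted p = 0.00269). S100a9 rose by 2.34 and Retnlg by 2.02. Of these genes only Retnlg lost its call, when tumour-free replicate 1 or any 1 tumour-bearing sample was left out. Ly6g, against which the sort was gated, was 5.52, 5.38 and 6.62 in tumour-free and 7.16, 6.80 and 6.75 in tumour-bearing samples, and did not pass (adjusted p = 0.168).

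Lymphocyte transcripts were lower or did not pass. Of 13 tested B and plasma cell markers 5 fell, against 0.998% of all tested genes called lower, with a median of −0.78. Cd79a, a chain of the B cell receptor complex, fell by 1.18 (adjusted p = 0.00687). Cd79b, its partner, fell by 0.91. Cd79a passed in all 13 alternatives, and the tyrosine kinase gene Blk, which fell by 1.33, in 8. Cd79b and Blk lost their calls when any single sample other than tumour-free replicate 2 was left out. Of 20 tested T and NK cell markers none passed in limma (5 lower at an unadjusted p under 0.05) and 18 had estimates below 0. Of these, 1 passed as lower in the blocked fit, 4 without tumour-free replicate 2 and 2 without both samples numbered 2. Klrk1, an activating receptor, passed with the block (adjusted p = 0.0369) but not without it (adjusted p = 0.0905, and 0.0369 to 0.306 over the alternatives). Cd3e, a gene of the gate, was 8.71, 8.02 and 8.46 in tumour-free and 7.02, 7.31 and 7.85 in tumour-bearing samples, with all tumour-bearing values below the tumour-free ones, and did not pass (adjusted p = 0.131). Ncr1 (NKp46), also a gene of the gate, differed by −0.52 (adjusted p = 0.484).

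Endothelial markers showed how the samples numbered 2 bear on a list. None of 22 passed in limma (1 higher and 4 lower at an unadjusted p under 0.05), although the median was −0.70, and 8 passed as lower without tumour-free replicate 2 and 5 without both samples numbered 2. Their share was 0.0590% in tumour-free replicate 2 and 0.110% and 0.0957% in the other 2 tumour-free samples, against 0.0600–0.0781% in tumour-bearing samples. Stab2, a hyaluronan receptor of sinusoidal endothelium, was 13.32, 13.01 and 13.41 in tumour-free and 12.43, 12.72 and 12.68 in tumour-bearing samples, and passed with the replicate block (adjusted p = 0.048) but not without it (adjusted p = 0.0913, and 0.0157 to 0.322 over the alternatives). The share of immediate early genes went the other way, at 0.159% in tumour-free replicate 2 and 0.129% in tumour-bearing replicate 2 against 0.0736 to 0.0972% in the other 4 samples, and none of the 28 tested passed in limma (2 higher and 2 lower at an unadjusted p under 0.05).

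Several other programmes of macrophage biology gave few calls or none, where 2.55% of all tested genes were called higher and 0.998% lower. None of 21 Toll-like receptor and adaptor genes, 24 iron and haem genes or 31 cholesterol and fatty acid genes passed in limma, with medians of −0.14, −0.04 and 0.08, and at an unadjusted p under 0.05 there were 1, 2 and 2 higher and 5, 3 and 3 lower. The replicate block gave 2 falls, 2 rises and 1 rise in these lists. Ftl1 and Fth1, the ferritin chains, differed by 0.19 and 0.65, Unc93b1, which escorts endosomal Toll-like receptors, by −0.57, Cd14 by −0.38 and the phospholipid transfer protein Pltp by −0.48. In the hypoxia and glycolysis list only Egln3, an oxygen-sensing hydroxylase, passed (1.53, adjusted p = 0.0496), and it lost its call in 9 of the 13 alternatives. The block gave 5 rises and 1 fall there. Of 35 cell cycle genes only Mki67, a marker of cycling cells, passed, rising by 1.32 (adjusted p = 0.0462), with a call lost in 7 alternatives. Of 31 tested Notch, BMP and TGF-beta genes only the receptor Tgfbr1 passed (1.20, adjusted p = 0.0298). Its call was lost when tumour-free replicate 1, any 1 tumour-bearing sample or both samples numbered 2 were left out. Of 16 dendritic cell markers Cd24a, which also stands in the epithelial list, rose by 1.44 and Ly6d fell by 0.99. They lost their calls in 3 and 5 of the 13 alternatives. None of 13 tested stellate cell and fibroblast markers passed in limma, with 2 lower at an unadjusted p under 0.05, 2 lower without tumour-free replicate 2 and 1 without both samples numbered 2, and the collagen Col3a1 differed by −0.09.

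**Figure D5:**
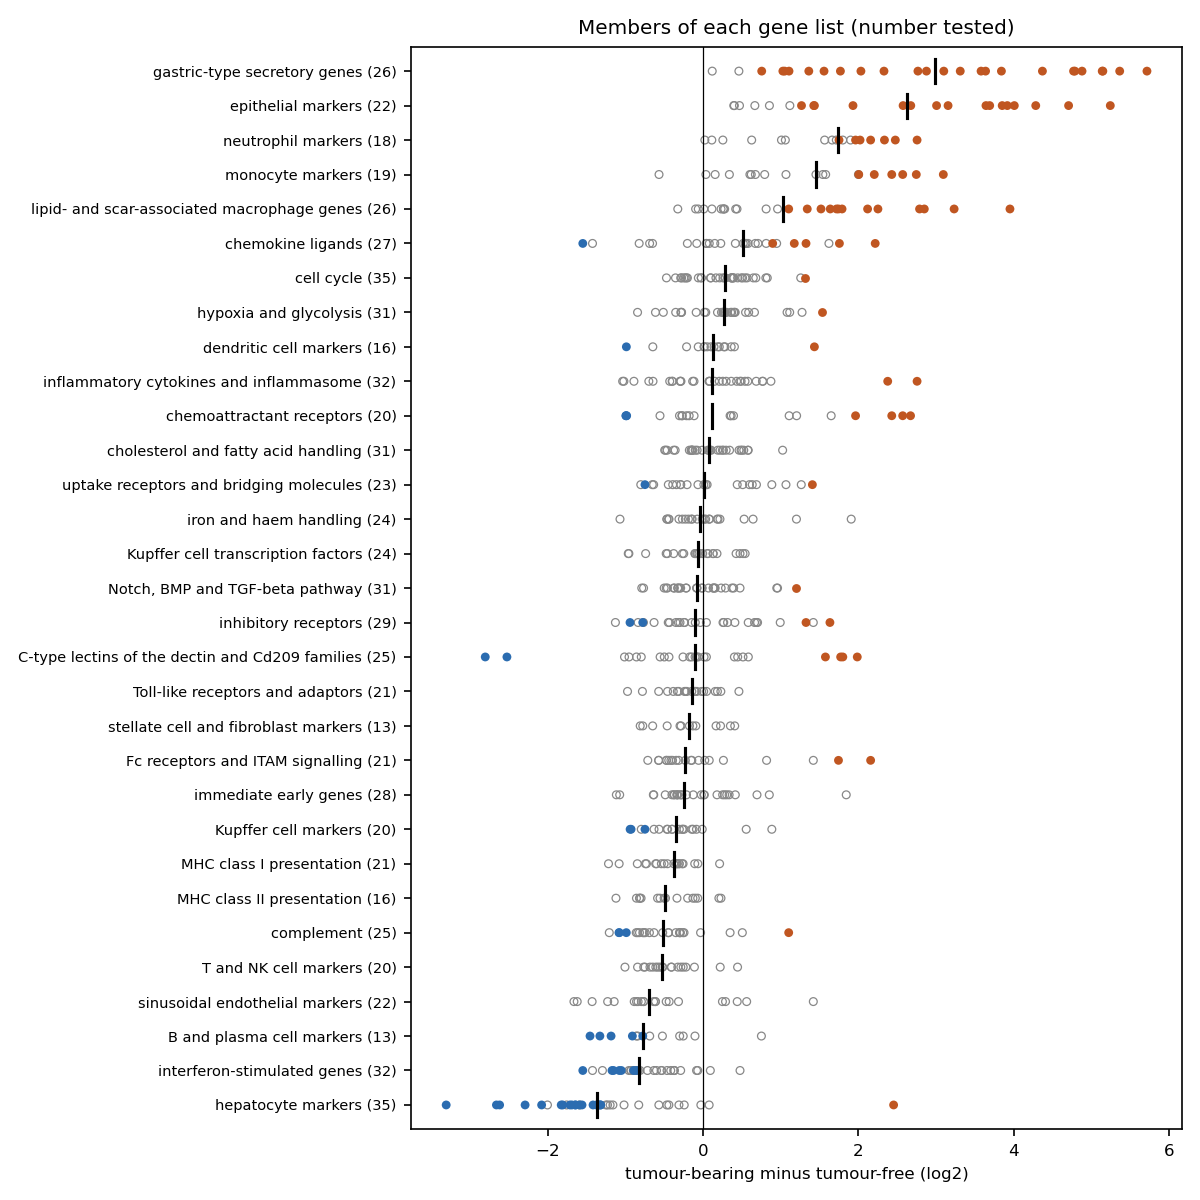
Each row is a gene list with its number of tested members, each circle a member at its log2 difference between tumour-bearing and tumour-free KCs, and each black bar the median. Filled circles passed limma's test (orange higher, blue lower), and the medians run from 2.99 for gastric-type secretory genes to −1.37 for hepatocyte markers.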

How the data were processed

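Per the labels and the methods, the authors sorted KCs into TRIzol, amplified cDNA with SMART-Seq v4 without molecular identifiers, aligned paired reads with STAR 2.7.10a to mm10 (GRCm38), counted them on genes with HTSeq and used DESeq2. The deposited values are log2 values with the features of DESeq2's regularized log, although the header calls them TPM, and the transformation is not given in the sources used here. No counts per sample were used here, so no counting intervals are given. Another 11 columns, of other experiments, were not used.

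Genes with a deposited value at or above log2 of 10 in at least 3 of 6 samples were tested (13233 genes) by limma 3.58.1, run in R 4.3.3. The fit used a trend of variance on mean, p-values were adjusted over all tested genes (Benjamini-Hochberg), and genes under 0.05 were called. The test planned for each gene had no block. Deviations from group means of samples with the same number correlated across genes with r = 0.35, 0.56 and 0.15. The number was used as a block in an alternative fit, although no label says that samples with the same number belong together. Samples with different numbers gave r of −0.53 to 0.30, and tumour-free replicate 3 had 0.16 with tumour-bearing replicate 1. On simulated data of 13233 genes, 2%, 38%, 72% and 94% of changes of 0.5, 1, 2 and 4 log2 units were recovered, with 5.5% false among calls. The simulated noise was normal and independent between genes, and changed genes were only raised. These rates therefore do not cover deviations shared across genes, such as those of the samples numbered 2. A permutation test of 3 against 3 samples cannot give a p under 0.1.

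Named genes are the 10 largest rises and falls among called genes, up to 6 called members of each of 31 lists or 2 members with the highest mean where fewer than 2 passed, the gate genes, and Id3, Sirpa and Clec7a. Members and lists were chosen with earlier results of these data known. The alternatives were no filter, a mean of at least 50 counts, median centring, quantile normalization, no trend, the replicate block and each sample left out. Leaving out both samples numbered 2 was added after seeing the data. Positions and promoters are RefSeq's on GRCm38.p6. Python 3.11.15, numpy 2.4.6, pandas 2.3.3 and matplotlib 3.10.9 were used. Some items are not reported here.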

Additional observations from a re-analysis of the deposited data

How the results depend on the processing

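The replicate block raised the number of genes called from 469 to 1026, of which 466 were shared, with 617 higher and 409 lower. The 6 fits that each left out a single sample called 231 to 1022 genes, 203 to 427 higher and 28 to 595 lower, and both upper ends came without tumour-free replicate 2. Without both samples numbered 2 there were 744, with 375 lower, and without a filter 85 genes were lower. The other counts over all genes, under stricter filtering, median centring, quantile normalization and no trend, stayed within 1.5 times the values reported. Counts of lists moved further. Interferon-stimulated falls went from 7 to 3 with no filter or no trend. Gastric-type rises went from 24 to 15 with a mean of at least 50 counts. KC marker falls went from 3 to 0 with median centring and 1 with no trend. Falls in the inhibitory receptor list went from 2 to 0 with no filter, median centring or no trend. Chemokine rises went from 5 to 3 with median centring. Under these filters, scalings and no trend, counts of other lists that moved past 1.5 times did so by 1 or 2 genes. The block and the fits with samples left out moved list counts further. Neutrophil marker rises went from 7 to 13 with the block, and hepatocyte marker falls from 18 to 7 without tumour-bearing replicate 2. MHC class I falls went from 0 to 12 without tumour-free replicate 2. The causes of these shifts were not tested. Estimates turned sign only in 6 named genes that did not pass. Over the fits without a single sample, the log2 difference ran from −0.00918 to 0.36 in Ecm1, from −0.74 to 0.26 in Col3a1, from −0.40 to 0.039 in Mcm5, from −0.059 to 0.56 in Stmn1, from −0.019 to 0.43 in Gapdh and from −0.33 to 1.11 in Apoe, and that of Gapdh was −0.0098 without both samples numbered 2. The block took no named gene's call away. Depth per sample is unknown, and the shrinkage of genes with few reads limits what can be said of low transcripts.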

Other observations

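Some genes outside the lists were picked after their values were seen. They were chosen because they passed, and they stand for no group. Atp6v0d2, a subunit of the proton pump, was 4.92, 5.38 and 5.95 in tumour-free and 7.41, 7.59 and 8.00 in tumour-bearing samples, a difference of 2.25 ± 0.32 (SE; limma, adjusted p = 0.00717). Ocstamp, needed for the fusion of osteoclast precursors, rose by 1.94, the collagen-degrading protease Ctsk by 1.47 and the collagenase Mmp13 by 1.34. Cidec, a lipid droplet protein, was 4.69, 4.68 and 5.40 in tumour-free and 7.28, 7.14 and 7.24 in tumour-bearing samples, a rise of 2.30, and Fam20c, a kinase of secreted proteins, rose by 2.32. Tmem119, known from microglia, was 7.83, 8.27 and 8.71 in tumour-free and 11.11, 10.59 and 10.35 in tumour-bearing samples, a difference of 2.41 ± 0.29 (SE; adjusted p = 0.00315), Olfml3 rose by 1.77 and Fcrls by 2.28. Atp6v0d2, Cidec, Tmem119 and Olfml3 passed in all 13 alternatives, and each of the others lost its call in 2 to 5.

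Vil1, which codes for the brush border protein villin, was 4.48, 4.46 and 4.55 in tumour-free and 8.07, 7.54 and 7.96 in tumour-bearing samples, a rise of 3.36. The protocadherins Cdhr2 and Cdhr5, the intestinal phosphatase Alpi, the antigen Gpa33, the retinol carrier Rbp2 and Phgr1 rose by 2.71, 2.21, 3.08, 3.16, 2.54 and 4.33. Msln and Wfdc2, known from pancreatic and ovarian carcinoma, rose by 3.64 and 3.67, and the pancreatic factor Pdx1 by 0.95, with a call lost in 10 of the 12 alternatives that tested it. The mast cell protease genes Mcpt1, Mcpt2 and Mcpt4 rose by 1.63, 3.11 and 0.65, and Mcpt2 was 5.08, 4.59 and 4.62 in tumour-free and 8.08, 7.84 and 7.69 in tumour-bearing samples. Mcpt4 lost its call in 11 of the 12 alternatives that tested it. Among the falls were genes expressed by lymphocytes and by KCs: the costimulator Icos (−1.02), the common cytokine receptor chain Il2rg (−0.99), Gimap3 (−1.28), Gimap6 (−0.99), the IL-10 receptor Il10ra (−0.70), the IL-27 chain Ebi3 (−0.78) and the thioredoxin inhibitor Txnip (−0.96). These 7 passed without tumour-free replicate 2 and lost their calls in 4 to 8 of the alternatives.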
